A study of Mus musculus with 7 samples.

Results

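The 8 Klf and Egr genes described here, zinc finger transcription factors of 2 families, were followed in satellite cells sorted from mice after death and from living old mice. They were Klf2, Klf4, Klf6, Klf9 and Klf10 of the Kruppel-like family and Egr1, Egr2 and Egr3 of the early growth response family. The genes were taken by name. All 8 were represented by 1 probe set that the array annotation assigns to that gene alone, and all 8 were among the 9944 genes tested of the 13287 named genes on the arrays. Satellite cells, the stem cells of skeletal muscle, carried the TgPax7nGFP transgene, which marks Pax7-expressing cells with nuclear GFP, and were isolated by FACS on size, granularity and GFP straight into lysis buffer. There were 3 arrays of cells taken on day 4 post mortem (D4PM), 2 of cells taken on day 2 post mortem (D2PM) and 2 of cells from living mice of 24 to 26 months (old). Mice examined after death were 8 to 12 weeks of age by the study's account, so post-mortem and old arrays differ in the age of the mouse as well as in death, and these cannot be told apart here. The array labels and the methods give months for the living mice, whereas the design text gives weeks for the same numbers and the series title speaks of young adults. Arrays of living young mice were not analysed here. Whether arrays of 1 group stand for different mice is unstated, and the p-values therefore reflect array-to-array spread that may be technical.

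Kruppel-like factors are transcription factors that bind GC-rich and CACCC sequences through zinc fingers at their C-terminal end. Klf2 and Klf4 act downstream of the kinase ERK5 and the MEF2 factors and are best known from endothelium, where blood flow induces Klf2, while Klf4 is also one of the reprogramming factors. Klf6 is induced by injury and stress. Klf9 is a direct target of the glucocorticoid receptor, and Klf10 was described as an early gene induced by TGF-beta. The Egr factors bind a GC-rich element and are immediate early genes: signals that reach MAP kinases and serum response factor (SRF) switch them on within minutes without new protein synthesis, and the corepressors Nab1 and Nab2 limit their activity. Egr2 is also the master regulator of myelinating Schwann cells, and Egr1 and Egr2 act in tendon development. Tissue dissociation is itself known to induce many early genes in satellite cells.

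Promoter sequence from RefSeq (build GRCm38.p6) was held for 5 of the 8 genes, Klf2, Klf4, Klf6, Klf9 and Egr2. The 250 bases before the annotated start are shown for 4 of them, read 5′ to 3′ on the strand of the gene. Capitals mark a MEF2 box (Klf2), a CArG box, the element that SRF binds (Egr2), and the core CRE motif TGACG or its complement CGTCA (Klf2, Klf4, Klf9 and Egr2), all searched on both strands.
Klf2, chr8:72318812-72319061, + strand: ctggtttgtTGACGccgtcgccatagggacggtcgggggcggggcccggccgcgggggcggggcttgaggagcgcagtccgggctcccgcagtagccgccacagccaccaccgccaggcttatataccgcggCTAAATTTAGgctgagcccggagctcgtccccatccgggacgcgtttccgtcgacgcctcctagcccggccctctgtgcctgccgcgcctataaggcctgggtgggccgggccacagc
Egr2, chr10:67537619-67537868, + strand: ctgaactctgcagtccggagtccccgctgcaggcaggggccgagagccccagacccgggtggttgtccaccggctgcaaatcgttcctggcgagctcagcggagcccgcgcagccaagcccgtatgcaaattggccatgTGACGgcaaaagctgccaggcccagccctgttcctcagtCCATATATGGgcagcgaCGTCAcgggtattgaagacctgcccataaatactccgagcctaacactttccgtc
Klf4, chr4:55532476-55532725, - strand: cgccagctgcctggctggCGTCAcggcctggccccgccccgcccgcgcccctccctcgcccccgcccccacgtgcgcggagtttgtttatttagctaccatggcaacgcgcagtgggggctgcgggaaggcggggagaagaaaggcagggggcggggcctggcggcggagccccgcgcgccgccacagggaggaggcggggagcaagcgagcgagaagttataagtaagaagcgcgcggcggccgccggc
Klf9, chr19:23140976-23141225, + strand: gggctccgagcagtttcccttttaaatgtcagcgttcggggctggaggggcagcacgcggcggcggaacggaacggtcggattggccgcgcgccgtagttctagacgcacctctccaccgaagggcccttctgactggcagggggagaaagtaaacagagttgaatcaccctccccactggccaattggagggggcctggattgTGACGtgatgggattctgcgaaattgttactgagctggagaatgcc
The MEF2 box of Klf2, CTAAATTTAG, lay 118 to 109 bases before the start. A MEF2 box was present in 2.92% of the 32851 promoter windows of the same length. The CArG box of Egr2, CCATATATGG, lay 72 to 63 bases before the start shown, and 1.47% of all windows held a CArG box. RefSeq lists 5 starts for Egr2. The windows of 3 neighbouring starts overlap and share that box, another window held the CArG box CCTTTTTTGG, and the window of the most upstream start held neither. The core CRE motif occurred in 17.8% of windows, and the full CRE TGACGTCA, found in 1.55% of windows, was in none of the windows of these 5 genes. The GC box GGGCGG (32.7% of windows) was found at 4 places in Klf4, 2 of them sharing a base, at 4 in the most upstream Egr2 window, at 2 in Klf2 and at 1 in Klf6 and in another Egr2 window, and the E-box CACGTG (6.02% of windows) in Klf4, Klf6 and the most upstream Egr2 window. The Egr element GCGTGGGCG (0.536% of windows) was in none of them, and the Klf9 window held the core CRE motif alone. The Klf6 window held none of the MEF2 box, the CArG box and the core CRE motif. These are matches of letters and do not show that a factor binds there.

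Of the 8 genes 7 had higher mean values in post-mortem than in old cells and 1 (Klf9) had a lower mean. By the fit over all genes (limma, Benjamini-Hochberg adjusted p under 0.05, mean of D4PM and D2PM minus old), 5 rose, Klf2, Klf4, Klf6, Egr1 and Egr2, and Klf9 fell, while Klf10 and Egr3 did not pass. Over all 9944 genes 29.0% were called in this comparison, 14.4% higher and 14.7% lower. The median log2 change was 0.46 over the 8 genes and 0.00 over all genes. In 6 of the 8 genes every post-mortem array lay above both old arrays, and in Klf9 every post-mortem array lay below them, as 22.8% and 23.2% of all genes did. A change above 0 was seen in 50.3% of all genes. The called rises were 3.33-fold for Klf2, 1.57-fold for Klf4, 1.48-fold for Klf6, 1.45-fold for Egr2 and 1.29-fold for Egr1, and Klf9 was 1.62-fold lower post mortem. Between the 2 days no member passed. In bulk RNA a change in the number of cells of a type and a change in RNA per cell cannot be told apart.

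**Figure D1:**
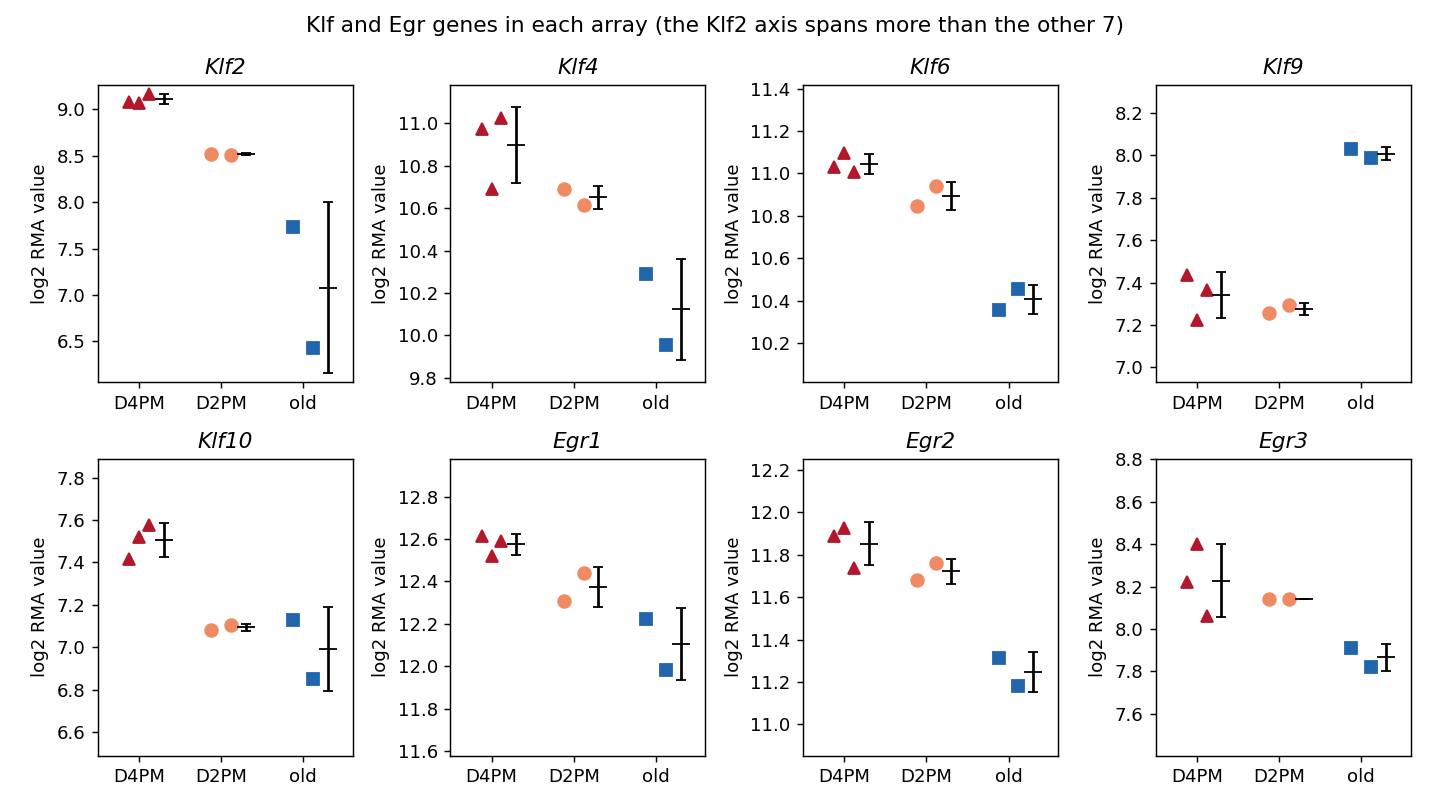
Log2 RMA value of the 8 Klf and Egr genes, with 1 point per array (triangles, 3 D4PM arrays; circles, 2 D2PM arrays; squares, 2 old arrays) and the group mean ± SD as a black bar. Klf9 is the gene whose post-mortem arrays all lie below the old arrays, and the Klf2 axis spans a wider range because its old arrays lie at 7.73 and 6.43.

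Klf2 had the largest change of the 8. Its log2 value was 9.08, 9.07 and 9.17 at D4PM, 8.52 and 8.51 at D2PM, and 7.73 and 6.43 in old cells. The groups did not overlap, and the 2 old arrays lay farther apart than in any other member. The log2 change was 1.73 post mortem relative to old cells (standard error 0.25, limma adjusted p = 0.000689), at rank 45 among the rises of all genes tested. It was 2.03 at D4PM (adjusted p = 0.000482) and 1.44 at D2PM (adjusted p = 0.00837), each against the same old arrays. A single old array set much of this size: without old replicate 2 the post-mortem change was 1.08 (adjusted p = 0.00686), and without old replicate 1 it was 2.39 (adjusted p = 0.000359). The call at D2PM was lost without D2PM replicate 1 (adjusted p = 0.114) or D2PM replicate 2 (adjusted p = 0.0885).

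Klf4 was at 10.97, 10.69 and 11.03 at D4PM, 10.69 and 10.61 at D2PM, and 10.29 and 9.96 in old cells. The post-mortem arrays were all above the old ones, and the lowest D4PM array was level with the higher D2PM array. The change was 0.65 post mortem (standard error 0.14, limma adjusted p = 0.00504), 0.77 at D4PM (adjusted p = 0.00332) and 0.53 at D2PM (adjusted p = 0.0436). Without old replicate 2 these were 0.48, 0.61 and 0.36 and none passed (adjusted p = 0.105, 0.0694 and 0.279). The D2PM call was also lost without D4PM replicate 1 (adjusted p = 0.0566), D2PM replicate 1 (0.224) and D2PM replicate 2 (0.147).

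Klf6 was at 11.03, 11.10 and 11.01 at D4PM, 10.85 and 10.94 at D2PM, and 10.36 and 10.46 in old cells. Here the 2 old arrays lay close together, well below all post-mortem arrays. The change was 0.56 post mortem (standard error 0.11, limma adjusted p = 0.00341), 0.64 at D4PM (adjusted p = 0.00274) and 0.49 at D2PM (adjusted p = 0.0249). Leaving out any 1 array gave a post-mortem change of 0.51 to 0.61 that passed each time, whereas the D2PM call was lost without D2PM replicate 1 (adjusted p = 0.104), D2PM replicate 2 (0.126), old replicate 1 (0.0821) or old replicate 2 (0.0815).

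Klf9 went against the other members. It was at 7.43, 7.22 and 7.37 at D4PM, 7.26 and 7.30 at D2PM, and 8.03 and 7.98 in old cells. The 5 post-mortem arrays overlapped between the days and lay below both old arrays. The change was -0.70 post mortem (standard error 0.11, limma adjusted p = 0.00120), with -0.67 at D4PM and -0.73 at D2PM (adjusted p = 0.00252 and 0.00454). Leaving out 1 array gave a post-mortem change of -0.72 to -0.67 that passed each time, and the D2PM call was lost without D2PM replicate 1 alone (adjusted p = 0.0608).

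Klf10 was at 7.42, 7.52 and 7.58 at D4PM, 7.08 and 7.11 at D2PM, and 7.13 and 6.85 in old cells. The D4PM arrays stood above all others, and the D2PM arrays lay between the 2 old arrays. The change was 0.51 at D4PM (standard error 0.13, limma adjusted p = 0.0136) and 0.10 at D2PM (adjusted p = 0.643), and the mean of the days gave 0.31 (adjusted p = 0.0770). The D4PM call was lost without old replicate 2, at 0.37 (adjusted p = 0.133), and the mean of the days passed without old replicate 1, at 0.45 (adjusted p = 0.0483).

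Among the Egr genes, Egr2 changed most. It was at 11.89, 11.93 and 11.74 at D4PM, 11.68 and 11.76 at D2PM, and 11.31 and 11.18 in old cells. All post-mortem arrays were above the old ones and the 2 days overlapped. The change was 0.54 post mortem (standard error 0.12, limma adjusted p = 0.00528), 0.61 at D4PM (adjusted p = 0.00481) and 0.47 at D2PM (adjusted p = 0.0328). Without old replicate 2 these were 0.47, 0.54 and 0.41 and none passed (adjusted p = 0.0762, 0.0611 and 0.167). The D2PM call was lost as well without D2PM replicate 1 (adjusted p = 0.127), D2PM replicate 2 (0.153) or old replicate 1 (0.0579).

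Egr1, the best known immediate early gene of the family, was at 12.61, 12.52 and 12.59 at D4PM, 12.31 and 12.44 at D2PM, and 12.22 and 11.98 in old cells. The 3 groups did not overlap, but the lower D2PM array and the higher old array differed by only 0.08. The change was 0.37 post mortem (standard error 0.12, limma adjusted p = 0.0363), 0.47 at D4PM (adjusted p = 0.0186) and 0.27 at D2PM (adjusted p = 0.209). The post-mortem call held when leaving out D4PM replicate 2 or old replicate 1 and was lost without D4PM replicate 1 (adjusted p = 0.0555), D4PM replicate 3 (0.0565), D2PM replicate 1 (0.0619), D2PM replicate 2 (0.0993) or old replicate 2 (0.264), and when the deposited values were quantile normalised once more, at 0.23 (0.215). Without old replicate 2 the D4PM call was lost too, at 0.35 (adjusted p = 0.153).

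Egr3 was at 8.22, 8.40 and 8.06 at D4PM, 8.14 on both D2PM arrays, and 7.91 and 7.82 in old cells. The deposited values of the 2 D2PM arrays were identical for this gene. Post-mortem arrays were above the old ones, and D4PM spread around D2PM. Its change of 0.32 post mortem did not pass (standard error 0.12, limma adjusted p = 0.0736), nor did 0.36 at D4PM (adjusted p = 0.0654) or 0.28 at D2PM (adjusted p = 0.216). Without D4PM replicate 3 the post-mortem change was 0.36 and the D4PM change 0.45, and both passed (adjusted p = 0.0486 and 0.0430). Quantile normalising once more also gave calls, at 0.40 and 0.48 (adjusted p = 0.0332 and 0.0220).

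**Figure D2:**
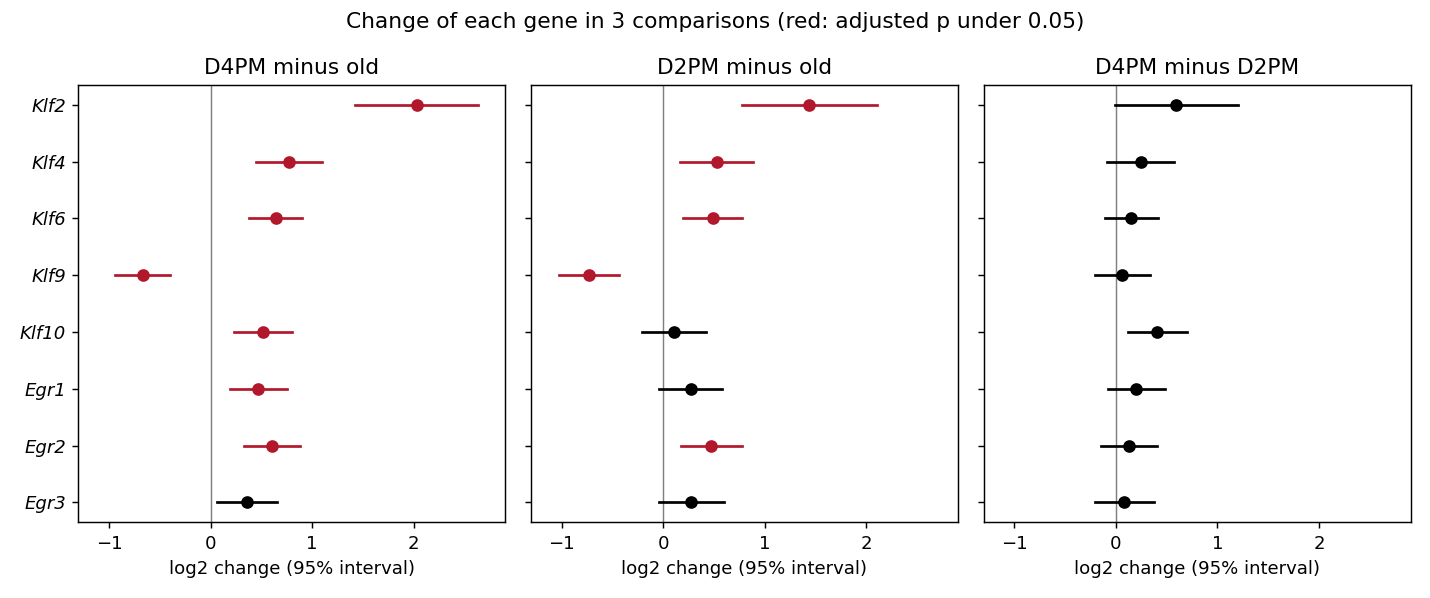
Log2 change of the 8 genes with its 95% interval from limma at D4PM minus old, D2PM minus old and D4PM minus D2PM, red where the adjusted p is under 0.05. Of the 8 genes 7 are red at D4PM and 5 at D2PM relative to the same 2 old arrays, and none between the days, where all 8 points lie right of 0.

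**Figure D3:**
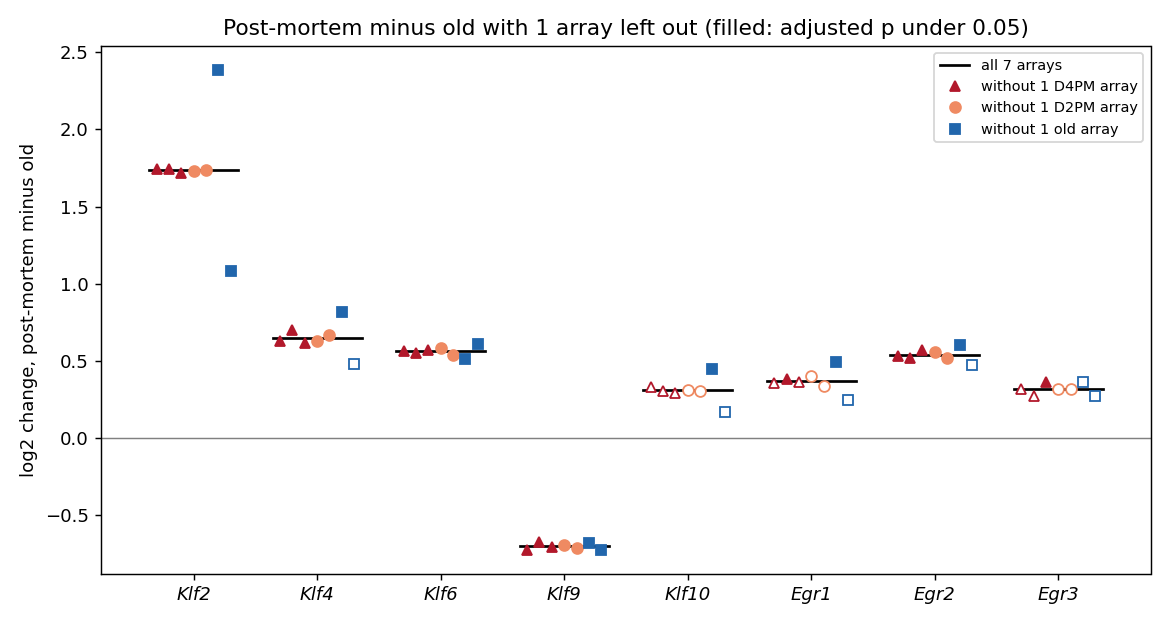
Log2 change of the 8 genes, post-mortem minus old, with all 7 arrays (black bars) and with 1 array left out (symbols by the group of that array), filled where the adjusted p is under 0.05. Klf2 runs between 1.08 and 2.39 without an old array, while Klf6 and Klf9 stay filled throughout.

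Relative to the same old arrays, 7 of the 8 genes were called at D4PM (6 higher, 1 lower) and 5 at D2PM (4 higher, 1 lower), where 27.9% (12.4% higher, 15.5% lower) and 19.4% (10.3% higher, 9.11% lower) of all genes were called. At D4PM 7 of the 8 lay wholly above the old arrays and 1 wholly below, as 26.6% and 27.9% of all genes did. At D2PM 6 lay wholly above and 1 wholly below, as 31.6% and 30.6% did, so that share at D2PM is read against a background where most genes separate. The difference between the days was tested directly. At D4PM minus D2PM none of the 8 passed in limma, and 0.191% of all genes did (19 of 9944). Of the 8, Klf10 alone had an unadjusted p under 0.05 (0.00941), as did 7.76% of all genes. All 8 changes were above 0, as were 43.4% of all genes, with a median of 0.18 over the 8 genes and -0.03 over all genes. The largest were Klf2 at 0.59 (95% interval -0.01 to 1.20, adjusted p = 0.634) and Klf10 at 0.41 (0.12 to 0.70, adjusted p = 0.510). The change was 0.25 for Klf4 (95% interval -0.08 to 0.57) and 0.20 for Egr1 (-0.08 to 0.48). It was 0.15 for Klf6 (-0.11 to 0.42), 0.13 for Egr2 (-0.14 to 0.41), 0.09 for Egr3 (-0.21 to 0.38) and 0.06 for Klf9 (-0.21 to 0.33). These intervals leave room for differences between the days in either direction, except for Klf10. In 5 of the 8 genes, Klf2, Klf4, Klf6, Klf10 and Egr1, all D4PM arrays were above both D2PM arrays, as in 9.69% of all genes. In 4 of them, Klf2, Klf4, Klf6 and Egr1, the D4PM arrays lay above the D2PM arrays and these above the old arrays, as in 2.83% of all genes, though in Klf4 the gap between the days was 0.0026.

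Of 12 other genes of the Kruppel-like family listed, 8 were tested. Klf1, Klf8 and Klf13 had no probe set to that gene alone and Klf17 was below the filter on mean signal. Of the 8, 2 rose post mortem, Klf3 and Klf7, and none fell, with a median change of -0.13. Over all genes 14.4% were called higher and 14.7% lower in this comparison, and post-mortem counts of the lists below are read against the same shares. Klf3, a repressor of the family, was at 7.90, 7.77 and 7.70 at D4PM, 7.58 and 7.63 at D2PM and 7.26 and 6.85 in old cells, a change of 0.65 (limma adjusted p = 0.00439). Klf7 was at 8.88, 9.11 and 8.73 at D4PM, 8.73 and 8.78 at D2PM and 8.48 and 8.12 in old cells, a change of 0.53 (adjusted p = 0.0157). The others ran from -0.40 (Klf5, adjusted p = 0.0733) to 0.19 (Klf11, adjusted p = 0.388). Between the days none of the 8 passed, and 7 had a change above 0 (median 0.19), as did 43.4% of all genes.

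Neither Egr4, also of the Egr family, nor the corepressors of the Egr factors passed. Egr4 had a change of 0.18 post mortem (limma adjusted p = 0.301), and the corepressors Nab1 and Nab2, of which Nab2 is itself induced by Egr factors, had changes of -0.32 and -0.13 (adjusted p = 0.0661 and 0.467). Of 7 genes known as Egr targets, Nab2 among them, Id3 rose by 0.90 (adjusted p = 0.00948) and Icam1, an adhesion molecule, fell by 0.68 (adjusted p = 0.00132), with a list median of -0.13. Of the targets known for Klf2 or Klf4, 3 of 6 were tested. Thbd, thrombomodulin, was at 6.57, 6.92 and 6.56 at D4PM, 7.12 and 7.12 at D2PM and 7.96 and 8.27 in old cells. It fell (-1.22, adjusted p = 0.000159), in the direction opposite to Klf2, which induces it in endothelium. S1pr1, a sphingosine phosphate receptor, rose by 0.67 (limma adjusted p = 0.0339), and Nos3 did not pass. S1pr1 passed at D4PM (limma adjusted p = 0.0395) and not at D2PM (0.100). Its value on D4PM replicate 3 (7.51) lay below that on old replicate 1 (7.57).

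Genes of the SRF, ERK5 and MAP kinase routes moved in both directions, and whether they regulate any of the 8 genes here was not tested. Of 4 tested genes of SRF and its partners, Srf rose by 0.39 (limma adjusted p = 0.0473). It did not pass on either day alone (limma adjusted p = 0.0744 at D2PM and 0.104 at D4PM). Elk4, an ETS factor that acts with SRF, fell by 0.55 (limma adjusted p = 0.00450). Of 7 genes of the route through ERK5 to MEF2 factors, Mef2c rose by 0.74 (adjusted p = 0.00302). Its values were 6.08, 6.27 and 5.82 at D4PM, 5.94 and 5.80 at D2PM and 5.34 and 5.11 in old cells. The other 6 did not pass, and the list median was -0.08. Of 9 genes that feed back on MAP kinases, 6 rose, Dusp1, Dusp4, Dusp6, Spry1, Spry4 and Spred2, and 2 fell, Spry2 and Spred1, with a median of 0.58. Spry4 rose by 0.82 (adjusted p = 0.00106), while Spry2 fell by 1.39 and Spred1 by 1.24 (adjusted p = 9.07e-05 and 8.28e-05). Spry2 was at 8.30, 8.36 and 8.13 at D4PM, 8.36 and 8.25 at D2PM and 9.43 and 9.91 in old cells.

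Klf9 and Klf10 were set beside genes that share their known inducers. Of 7 glucocorticoid-induced genes Tsc22d3 (Gilz) rose by 1.69 (limma adjusted p = 9.66e-06), and the metallothioneins Mt1 and Mt2 fell by 0.95 and 0.73 (adjusted p = 0.00172 and 0.00382). Tsc22d3 was at 8.41, 8.76 and 8.41 at D4PM, 8.53 and 8.51 at D2PM and 6.84 and 6.83 in old cells. Its step between post-mortem and old cells was opposite in direction to that of Klf9. Of 5 tested genes induced early by TGF-beta family ligands Id1 and Smad7 rose by 1.39 and 0.72 (adjusted p = 0.000675 and 0.00128), and Tgif1, a corepressor of SMAD proteins, fell by 1.31 (adjusted p = 2.86e-05). Of 19 tested early genes of other families 7 rose and 3 fell (median 0.32), among them Atf3 and Jun, up by 1.51 and 1.33 (adjusted p = 2.75e-05 and 8.38e-05), and Fosl1, which fell by 1.51 (adjusted p = 1.02e-05). Between the days none of the 71 genes in these 10 lists passed in limma, and 8 had an unadjusted p under 0.05. Over all genes 0.191% passed there and 7.76% had an unadjusted p under 0.05.

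**Figure D4:**
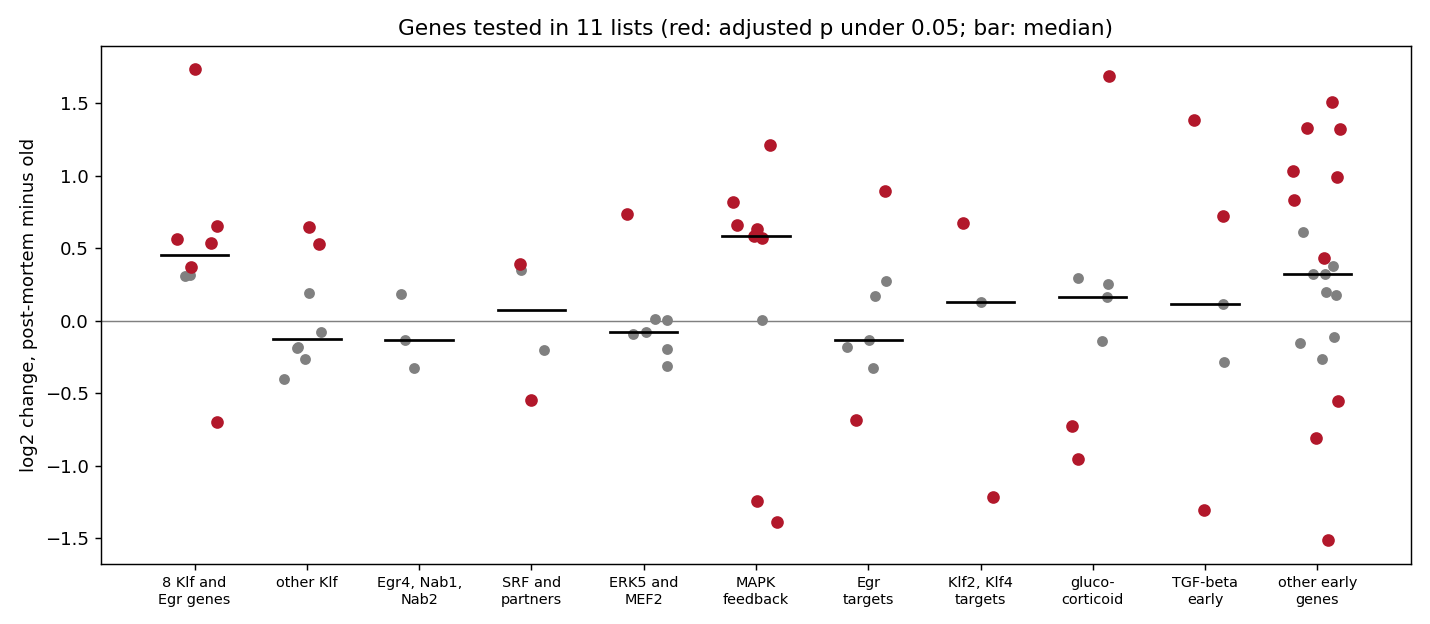
Log2 change, post-mortem minus old, of the tested genes of 11 lists, a point for each gene (red, adjusted p under 0.05) and a black bar at the median of a list. It is 0.46 over the 8 Klf and Egr genes, -0.13 over the other Klf genes and 0.58 over the MAP kinase feedback genes, where 6 genes lie above 0 in red and 2 below.

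Markers of other cell types moved in the same comparison. Of the genes that define satellite cells, Pax7 was between 9.87 and 10.52 on the 7 arrays and Myf5 between 10.99 and 11.44. Neither passed post mortem (limma adjusted p = 0.135 and 0.210). Among 10 tested satellite cell markers 2 rose post mortem, Calcr and Heyl, and 1 fell, Vcam1 (median 0.13). Itga7, another of the 10, was called lower at D4PM relative to old cells (-0.44, limma adjusted p = 0.0215). Of 17 endothelial markers, 11 rose post mortem, none fell and all 17 changes were above 0 (median 0.66). Their mean log2 value was 7.37, 7.15 and 6.80 at D4PM, 6.83 and 6.82 at D2PM and 6.43 and 5.82 in old cells. The defining gene Cdh5 was at 9.02, 8.83 and 8.46 at D4PM, 8.52 and 8.57 at D2PM and 7.53 and 6.25 in old cells. Old replicate 2 was the lower old array for Cdh5, for the means of all 6 marker lists with tested genes and for 7 of the 8 Klf and Egr genes, the exception being Klf6, whereas 45.5% of all genes were lower on it than on old replicate 1. Klf2 and Klf4 are themselves high in endothelium, and the part of endothelial RNA in their change was not tested. At D4PM minus D2PM all 17 endothelial markers had a change above 0 (median 0.27), as did 43.4% of all genes, and none passed. Klf2 and Klf4 moved the same way (0.59 and 0.25) and did not pass either. On D4PM replicate 3 alone the marker mean was level with the D2PM arrays, and Klf2 (9.17) and Klf4 (11.03) had their highest values there. Of 6 tested myofibre markers 5 rose (median 1.37), with Acta1 up by 1.88 (adjusted p = 1.36e-05) and a marker mean of 8.20, 8.52 and 8.22 at D4PM, 8.44 and 8.22 at D2PM and 7.35 and 7.01 in old cells. Of 5 tested tendon and Schwann cell markers, cells in which Egr1 and Egr2 act, S100b, Scx and Tnmd rose (1.27, 0.47 and 1.07, limma adjusted p = 0.00346, 0.0181 and 0.0334). Scx did not pass at D2PM (limma adjusted p = 0.115), nor Tnmd at D4PM (0.144). Tnmd on D4PM replicate 3 (4.92) lay below old replicate 1 (5.33). On old replicate 2 S100b (4.32) and Tnmd (4.33) were below 5.12, the filter on mean signal. Sox10, the defining Schwann cell gene, had a change of 0.12 and Mkx one of -0.11 (limma adjusted p = 0.510 and 0.597). The mean of the 5 markers was 6.03 to 6.34 at D4PM, 6.16 and 6.29 at D2PM and 5.38 and 5.91 in old cells. Of 8 tested macrophage and monocyte markers 1 fell, Cd14, and none rose (median -0.11). Their mean was 5.63 to 5.93 at D4PM, 5.62 and 5.95 at D2PM and 5.70 and 6.32 in old cells, the defining genes Cd68 and Lyz2 did not pass, and Csf1r and Ptprc were below the filter. Of 6 tested fibroadipogenic progenitor markers none passed post mortem and 1, Dcn, had an unadjusted p under 0.05 (median 0.12). Dcn changed by 1.11 (limma adjusted p = 0.0620), with old arrays at 9.97 and 7.94. Lum was called higher at D2PM relative to old cells (0.89, limma adjusted p = 0.0294). The mean of the 6 was 8.51 to 8.88 at D4PM, 8.98 and 9.10 at D2PM and 8.37 and 8.87 in old cells. At D4PM minus D2PM none of the 6 had a change above 0 (median -0.24), against 43.4% of all genes, and none passed. Pdgfra had no probe set to that gene alone. Of 7 lymphocyte markers none was tested, 3 being below the filter. The part of these other cells in the changes of the 8 genes was not tested.

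**Figure D5:**
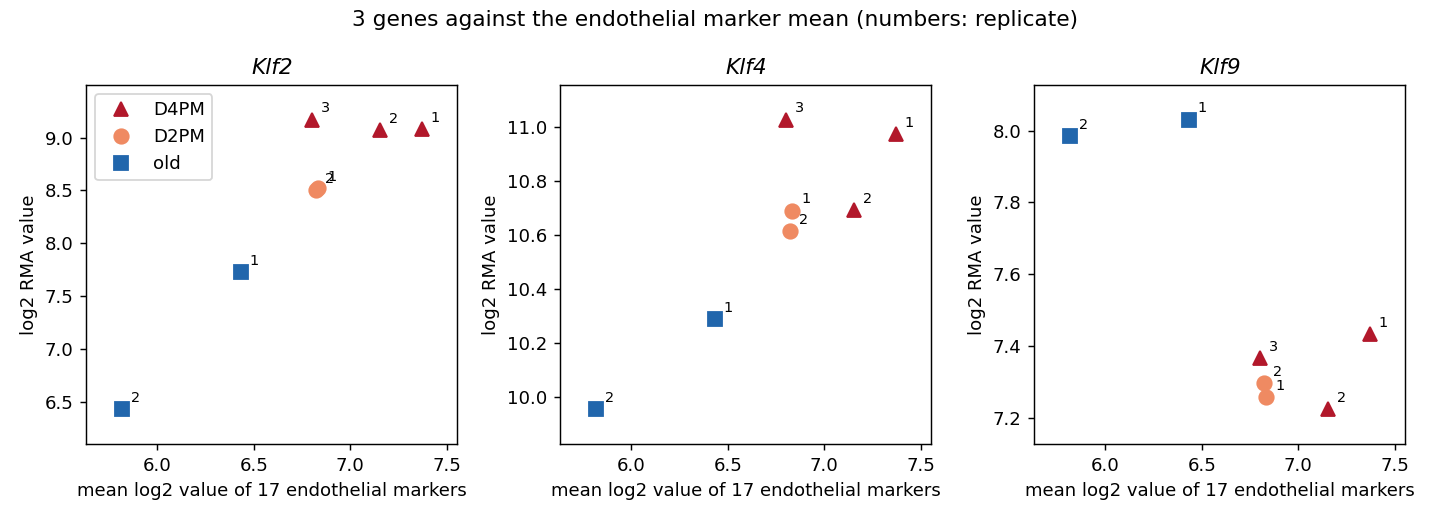
Log2 RMA value of Klf2, Klf4 and Klf9 against the mean log2 value of 17 endothelial markers, with 1 point per array numbered by replicate (triangles, D4PM; circles, D2PM; squares, old). Old replicate 2 is lowest on both axes for Klf2 and Klf4, and D4PM replicate 3 has the highest Klf2 and Klf4 at a marker mean of 6.80.

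The genes most like each member were found by the root mean square difference between profiles over the 7 arrays, each gene centred on its own mean. For Klf2 they were Cdh5, Gpihbp1 and Aqp1 (differences of 0.24, 0.24 and 0.24 log2 units, against a median of 0.93 over all genes), all of them known from endothelium. For Klf4 they were Bambi, Spred2 and Dusp1 (0.05, 0.06 and 0.07, median 0.38). Bambi is a decoy receptor of the TGF-beta family, and the other 2 are inhibitors of MAP kinase signalling. For Klf6 they were Klhl42, Pmf1 and Dynll1, and for Klf9 Ranbp2, Ankhd1 and Ncl, the gene of nucleolin. For Klf10 the nearest was Jund, an AP-1 gene, followed by Sox6os and Smtnl2. For Egr1 they were Hoxa4, Plekhh3 and Mafk, for Egr2 Tle3, Irs2 and Fbxl14, and for Egr3 Sgk1, a kinase induced by serum and glucocorticoids, Rapgef2 and Kcnk5. Within the 8 genes the closest pair was Klf6 and Egr2 (0.07). These likenesses are a description over 7 arrays that share the step between post-mortem and old cells.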

How the data were processed

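RNA of the sorted cells was amplified with Ovation Pico V2 and hybridised to Affymetrix Mouse Gene arrays. The authors deposited log2 values from RMA, a method of background correction, quantile normalisation and probe summary. By their methods they had taken out probes that were not expressed or did not vary, by a rule not given in the sources used here, so shares of genes called refer to what remained. RMA gives no detection call, and the number of arrays limits the precision. Any 2 arrays held identical values at 750 to 1449 of the 18675 probe sets, so equal values in a group need not mean close replication. The effect of this on the spread within groups was not tested. Names came from the array annotation through Entrez identifiers. Of the 14480 probe sets assigned to a single gene, 14425 had an identifier that matched RefSeq (GRCm38.p6). For a gene with several probe sets the brightest was used. The 9944 genes whose mean reached 5.12 (the 25th percentile over probe sets with a name) entered a fit in limma 3.58.1 (R 4.3.3) with 3 group means and Benjamini-Hochberg adjustment over all genes. The fit was tested on simulated data.

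The named genes were the 8 members, Egr4, Nab1, Nab2, Srf, Pax7 and Myf5, up to 3 genes per list with the largest statistic among those called, and the 3 nearest profiles of each member. Other genes of a list were named after their values were seen. The members and lists were chosen with earlier results of these data known. Results were recomputed with one more quantile normalisation, centring on medians, other signal filters, averaged probe sets, trended and robust priors, weighted arrays, a block for replicate number, single arrays left out, post-mortem arrays only, a minimum log2 change of 1 and the methods' t-test. The study's own array test was the moderated statistic of limma, the main test here, and the t-test is the one its methods name for general statistics.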

Additional observations from a re-analysis of the deposited data

How the results depend on the processing

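Requiring a log2 change of 1 or more left 1 member (Klf2) in place of 6 post mortem, 5 at D2PM and 7 at D4PM, all relative to old cells, and 413, 369 and 497 genes in place of 2887, 1931 and 2770. The methods' t-test, which the study names for general statistics and not for the arrays, gave 1719, 15 and 14 genes (2028 at D2PM and 2747 at D4PM at an unadjusted p under 0.05), and 0 members at D2PM and at D4PM. Leaving out 1 array gave 3 to 7 members post mortem (3 without old replicate 2), 0 to 5 at D2PM (0 without D2PM replicate 1, 1 without D2PM replicate 2, 3 without old replicate 1, 2 without old replicate 2) and 3 to 8 at D4PM (3 without old replicate 2). Over all genes it gave 858 to 2814 post mortem (858 without old replicate 2, 1865 without D2PM replicate 1), 323 to 2054 at D2PM (323 without D2PM replicate 1, 614 without D2PM replicate 2, 1280 without old replicate 1, 346 without old replicate 2) and 911 to 2512 at D4PM (911 without old replicate 2). An array left alone in its group was assumed to vary like the others. Between the days 0 members passed under any alternative. The 19 genes called there were 2 with post-mortem arrays only, 0 by the methods' t-test (692 at an unadjusted p under 0.05), and 0 to 21 with 1 array left out: 0 without D2PM replicate 1 (358 unadjusted) or D2PM replicate 2 (781 unadjusted), 2 without D4PM replicate 2 or either old array and 3 without D4PM replicate 1.

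A block for replicate number gave 54 genes between the days, and Egr1 post mortem did not pass with it (0.37, adjusted p = 0.0642). Deviations of same-numbered arrays from their group means correlated at -0.08 to 0.05. With 2 arrays in a group the deviations mirror each other, so these correlations cannot show whether arrays of the same number are paired. Egr1 post mortem also lost its call with median centring (0.33, adjusted p = 0.0566) and by the methods' t-test (0.0760), as Klf4 did by that test (0.0526). Klf4 at D2PM lost its call with median centring (0.0596), and Egr2 at D2PM (0.0513) and Egr1 at D4PM (0.137) with one more quantile normalisation. The sign of 2 changes that had not passed turned with 1 array left out: Egr3 between the days ran from -0.0012 (without D4PM replicate 2) to 0.17, and Klf10 at D2PM from -0.036 (without old replicate 2) to 0.24. With median centring post-mortem calls were 1230 higher and 1710 lower, against 1430 and 1457. Where the arrays or genes entering a fit were not the cause by construction, the cause was not tested.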

Other observations

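Among 10 satellite cell markers tested, Heyl, a Notch target, and Calcr, the calcitonin receptor of quiescent cells, rose by 0.81 and 0.55 post mortem (limma adjusted p = 0.00174 and 0.0114), and Vcam1, an adhesion molecule, fell by 0.73 (adjusted p = 0.00201). Heyl averaged 10.09 ± 0.14 at D4PM (SD, n = 3), 10.13 ± 0.18 at D2PM (n = 2) and 9.31 ± 0.24 in old cells (n = 2). Lum, a proteoglycan gene, was 1 of the 6 tested fibroadipogenic progenitor markers. It was at 5.39, 4.84 and 4.66 at D4PM, 6.18 and 5.72 at D2PM and 5.31 and 4.81 in old cells. It was called higher at D2PM relative to old cells (0.89, limma adjusted p = 0.0294).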
